A study of Mus musculus with 54 samples.

Results

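The nuclear genes for subunits of the mitochondrial respiratory chain and ATP synthase were followed in H2K mouse myogenic progenitors of 6 lines at days 0, 1, and 2 of differentiation. The members were chosen by gene symbol, without regard to their values. They comprise the Ndufa, Ndufb, Ndufc, Ndufs, and Ndufv genes of complex I, Sdha to Sdhd of complex II, the Uqcr genes of complex III, the Cox4 to Cox8 genes of complex IV, and the Atp5 subunit genes of complex V. Complexes were assigned by symbol, and assembly factors and pseudogenes were left out. The rule found 88 protein-coding genes in the RefSeq annotation of GRCm38.p6, of which 84 are among the 19653 genes listed in at least 1 deposited table. Complex I has 38 of the listed genes, complex II 4, complex III 8, complex IV 17, and complex V 17. Ndufb1, Ndufb4b, Ndufb4c, and Cox8c are listed in no table.

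The lines were wildtype progenitors, EMD-/y progenitors that lack emerin, and 4 lines made from EMD-/y progenitors by lentiviral transduction, with wildtype emerin (+EMD) or the emerin mutants S54F, Δ95–99, and Q133H, followed by puromycin selection. Emerin is a nuclear envelope protein whose loss or mutation causes Emery-Dreifuss muscular dystrophy. H2K progenitors proliferate at a low temperature with γ-interferon, and differentiation was induced in all lines by serum reduction at a higher temperature without it. Each genotype was represented by 1 line, so the genotype and the history of the line cannot be told apart. There are 18 groups of 3 labelled replicates, or 54 samples, taken at 0, 24, and 48 h. The protocol mentions both technical and biological replicates, and the labels do not say which of them the 3 are. Mouse Emd had values of 987 to 1962 in the wildtype groups, 0.457 to 3.52 in EMD-/y progenitors, 0.268 to 1.88 in the +EMD line, and 0.141 to 2.67 in the mutant lines. These values show the loss of the endogenous transcript and do not check which emerin a line was given.

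The respiratory chain passes electrons from NADH through complex I, or from succinate through complex II, to ubiquinone, complex III, cytochrome c, and finally oxygen at complex IV. The proton gradient made on the way drives ATP synthase, complex V. Skeletal muscle relies heavily on this pathway, and mitochondria multiply as myoblasts fuse into myotubes. Most subunits are encoded in the nucleus, and the remainder, 13 genes of the mitochondrial DNA, are not listed in the tables.

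The deposited tables hold 1 value per gene and group, with 0 columns of values per sample. Therefore no spread between replicates, no standard error, and no test can be given, and the comparisons below describe the values of 2 groups within a table. The values are normalized counts that summed to between 16.7 M and 21.1 M per group. They are not plain means of reads. In each table, 6 to 8 pairs of values were each shared by at least 50 genes at the bottom of the range, and the 2 values of such a pair differed by only 1.08-fold to 1.52-fold. Ratios of weakly expressed genes were thus drawn towards 0 on the log2 scale, and no gene is listed at exactly 0. The same group's value of a subunit usually agreed between tables. After tables were scaled to each other, the greatest difference between tables had a median of 1.00-fold over 83 subunits and exceeded 1.5-fold for 3 of them, which were Cox8b (7.88-fold), Atp5md (2.45-fold), and Cox6a2 (1.56-fold). Ratios below are for genes whose higher value in the table was at least 10, called measured genes. A ratio is given as the log2 of the later over the earlier day, or of the line over wildtype.

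As a group, the subunits were abundant. In wildtype progenitors at day 2, the value per kb of gene length had a median of 2463 over 82 subunits and of 150 over all 13268 measured genes. Atp5b, the catalytic β subunit of ATP synthase, was highest with 22077 per kb, followed by Atp5a1, its α subunit, with 9046 per kb, and Cox7c of complex IV with 8308 per kb. The lowest measured values were 3.45 per kb for Ndufa4l2, 90.9 per kb for Cox6b2, and 143 per kb for Cox7a1, which are isoforms of restricted expression. The subunits together took 0.886% of the summed values in wildtype progenitors at day 0 and 1.27% at day 2. In Q133H progenitors, that share was 0.866% at day 0 and 1.02% at day 2.

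Between days 1 and 2, the subunits were higher almost throughout in wildtype progenitors. The median log2 ratio over 82 subunits was 0.62, or 1.54-fold, whereas the median over all genes was 0.00. In total, 76 of the 82 were above 0, and 44 were at least 1.5-fold higher, against 18% of all measured genes. Only 3 were at least 1.5-fold lower (Ndufa4l2, Cox6b2, and Atp5g2), against 22.2% of all measured genes. EMD-/y progenitors had a median of 0.65 and 48 subunits at least 1.5-fold higher (background 17.8%). S54F progenitors had a median of 0.59 with 41 such subunits (background 18.6%). The step was smaller in the other transduced lines. The median was 0.43 in +EMD progenitors with 16 subunits at least 1.5-fold higher (background 19.4%), 0.36 in Δ95–99 progenitors with 13 (background 16.2%), and 0.19 in Q133H progenitors with 7 (background 13.8%). In the last 3 lines the share of subunits past 1.5-fold was therefore near or below that of all genes, although nearly all subunits lay above 0, namely 80 of 82 in +EMD, 81 of 82 in Δ95–99, and 70 of 81 in Q133H. Of 81 subunits measured in all 6 lines, 64 were above 0 in every line (79.0%), compared with 24.2% of 12256 genes. With group values rescaled to equal sums the number was 49, and the share of all genes was not computed for that scaling.

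**Figure D1:**
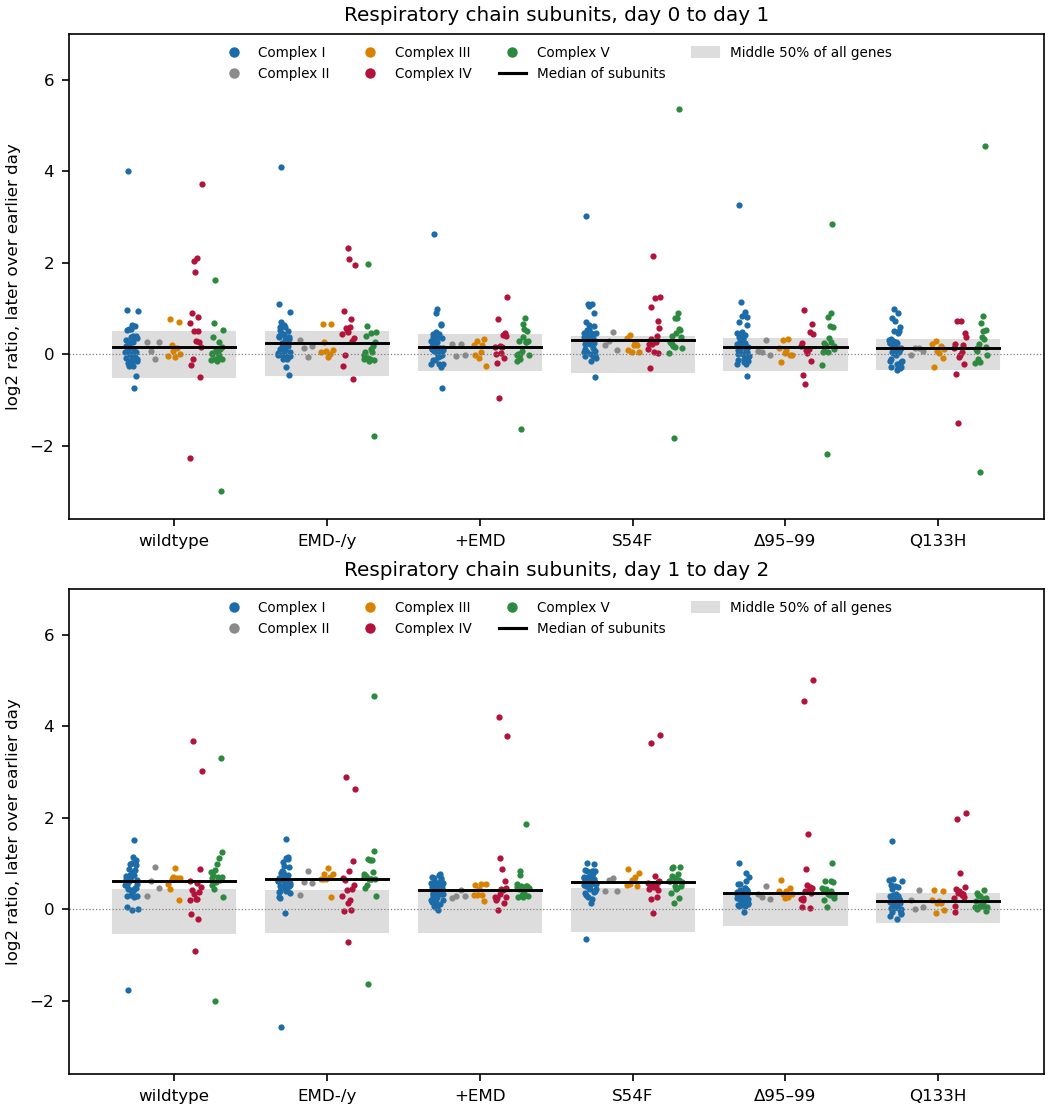
Log2 ratio of each measured subunit between days 0 and 1 (top) and days 1 and 2 (bottom) in the 6 lines, with 1 point per subunit coloured by complex, a black line at the median of the subunits, and a grey box over the middle 50% of all measured genes. Between days 1 and 2 the median lies at 0.62 in wildtype and at 0.19 in Q133H progenitors.

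The difference between the transitions was also taken gene by gene. The day 1 to day 2 ratio minus that of wildtype had a median of -0.50 over 81 subunits in Q133H progenitors, and 76.5% of the subunits were below 0, against 45.3% of all genes. The corresponding medians were -0.24 in Δ95–99, -0.17 in +EMD, -0.02 in S54F, and 0.03 in EMD-/y progenitors. The 5 differences share the wildtype transition. The day 1 to day 2 transitions of wildtype and EMD-/y progenitors join the sets of libraries described below, whereas those of the transduced lines lie within a set. Line and set can therefore not be told apart where a transduced line is compared with wildtype over this step, here and in the medians above.

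Scaling has a bearing on these sizes. When group values were rescaled to equal sums, all genes of a table shifted by between -0.27 and 0.25 in log2. The shift was -0.19 for wildtype between days 1 and 2, which leaves a median of 0.43 for the subunits, and -0.02 for Q133H, where the median was 0.17. Subunits at least 1.5-fold higher were then 25.6% in wildtype and 23.2% in EMD-/y progenitors, against 12.2% and 11.0% of all genes so scaled, but 11.0% in S54F progenitors against 11.7%, so the excess in the S54F count rests on the deposited scaling. The lead of the subunits over the median of all genes does not depend on this choice.

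At least 2-fold higher between days 1 and 2 were 10 subunits in wildtype (background 8.14%), 13 in EMD-/y (7.81%), 4 in +EMD (11.2%), 3 in S54F (9.54%), 5 in Δ95–99 (9.17%), and 3 in Q133H progenitors (6.55%). Cox6a2 and Cox8b were among them in all 6 lines.

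By complex, the day 1 to day 2 medians in wildtype progenitors were 0.62 for complex I, 0.54 for complex II, 0.67 for complex III, 0.38 for complex IV, and 0.70 for complex V. In Q133H progenitors they were 0.16, 0.12, 0.16, 0.36, and 0.13 in the same order. Complex IV was lowest of the 5 in wildtype and highest in Q133H progenitors.

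Between days 0 and 1 the subunits differed less. The median log2 ratio was 0.15 in wildtype, 0.26 in EMD-/y, 0.16 in +EMD, 0.30 in S54F, 0.16 in Δ95–99, and 0.14 in Q133H progenitors. At least 1.5-fold higher were 16 of 83 subunits in wildtype (background 21.5%), 17 of 82 in EMD-/y (21.4%), 9 of 80 in +EMD (19.1%), 17 of 82 in S54F (17.4%), 14 of 79 in Δ95–99 (15%), and 10 of 79 in Q133H progenitors (13%). The share in +EMD progenitors was thus below that of all measured genes, and those in the other lines lay within a few percentage points of it. Of 78 subunits measured in all 6 lines, 27 were higher in every line (34.6%, background 22.9%) and 2 were lower in every line (2.56%, background 24.6%). The 2 lower ones were Ndufs3 and Ndufs7, core subunits of complex I, with ratios of Ndufs3 between -0.27 and -0.03.

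Summed over both steps, the median from day 0 to day 2 was 0.78 in wildtype, 0.88 in EMD-/y, 0.92 in S54F, 0.56 in +EMD, 0.52 in Δ95–99, and 0.32 in Q133H progenitors. This sum was added after the values had been seen. Its first and last days lie within a set of libraries described below in wildtype and EMD-/y progenitors, and in different sets in the transduced lines.

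At day 2, each line was compared with wildtype progenitors. The subunits were lower in Q133H, Δ95–99, and +EMD progenitors, and near wildtype in S54F and EMD-/y progenitors. In Q133H progenitors the median log2 ratio was -0.57 and 76 of 82 subunits were below 0. At least 1.5-fold lower were 40 subunits, against 25% of all measured genes. In Δ95–99 progenitors the median was -0.49 with 27 subunits at least 1.5-fold lower (background 17.6%), and in +EMD progenitors it was -0.38 with 17 (background 15.1%). S54F progenitors had a median of 0.02 (-0.02 with equal sums) with 3 such subunits (background 10.1%), and EMD-/y progenitors had a median of 0.07 with 2 (background 6.18%). Few of these differences reached 2-fold, with 4 subunits at least 2-fold lower in Q133H (background 15.6%), 5 in Δ95–99 (9.1%), 4 in +EMD (7.81%), 1 in S54F (5.03%), and 0 in EMD-/y progenitors (2.96%). The 5 comparisons share the wildtype group. With equal sums, the median was -0.32 in Q133H and -0.31 in Δ95–99 progenitors, with 13 and 8 subunits at least 1.5-fold lower. These are 15.9% and 9.76% of the subunits, against 18.5% and 12.8% of all genes so scaled, so the excess of lower subunits in the counts of these lines rests on the deposited scaling. In +EMD progenitors the share was 18.3%, against 13.9%.

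**Figure D2:**
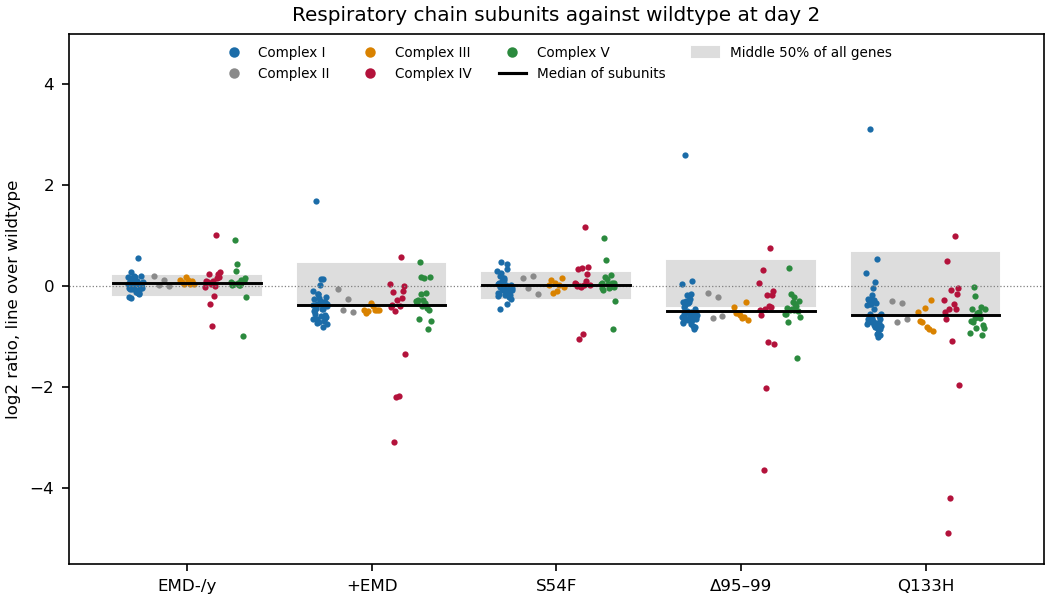
Log2 ratio of each measured subunit in a line over wildtype progenitors at day 2, with 1 point per subunit coloured by complex, a black line at the median of the subunits, and a grey box over the middle 50% of all measured genes. The median lies at 0.07 in EMD-/y and at -0.57 in Q133H progenitors, and complex IV holds the lowest points.

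At days 0 and 1 the medians against wildtype were closer to 0 than at day 2 in EMD-/y, +EMD, Δ95–99, and Q133H progenitors, but not in S54F progenitors. They were -0.03 and 0.05 in EMD-/y, -0.16 and -0.11 in +EMD, -0.09 and 0.04 in S54F, -0.17 and -0.19 in Δ95–99, and -0.06 and -0.15 in Q133H progenitors. In EMD-/y progenitors this order rests on the deposited scaling. Equal sums shift the log2 ratios of that line by -0.06 at day 2 and by -0.01 at days 0 and 1.

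The lines differed in genes of muscle differentiation as well. For 18 genes of myogenic differentiation, which include Myog, a transcription factor of committed myocytes, and Myh3, the embryonic myosin heavy chain, the median log2 ratio over wildtype at day 2 was 0.03 in EMD-/y, -0.03 in S54F, -0.58 in +EMD, -1.32 in Δ95–99, and -2.45 in Q133H progenitors. All 18 were at least 2-fold lower in Q133H progenitors. Ckm, the muscle creatine kinase, had values of 8943 in wildtype and 1036 in Q133H progenitors. At day 1 the medians of these genes were lower still, at -4.23 in Q133H, -3.58 in Δ95–99, -1.503 in +EMD, and -0.45 in S54F progenitors, whereas those of the subunits were between -0.19 and 0.04 in these lines. The part of differentiation in the lower subunit values was not tested. In bulk RNA, fewer differentiated cells and less RNA per cell cannot be told apart.

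Markers of other cells were also read at day 2. The immune markers Cd68 and Cd14 had values of 24.6 and 16.9 in wildtype and 106 and 212 in Q133H progenitors, while Csf1r lay at 2.21 and 2.33 and Lyz2 at 2.06 and 4.55. In Δ95–99 progenitors Cd14 had 64.8, beside 16.2 in wildtype. Among adipocyte markers, Cebpa had 137 in wildtype and 555 in Q133H progenitors, Fabp4 had 0.443 and 10.3, and Pparg had 3.99 and 8.28. Lpl went the other way, with 652 and 424. Among endothelial markers, Tek had 3.88 and 15.4, Kdr 8.12 and 19.5, and Pecam1 2.09 and 4.73, whereas Cdh5 had 6.30 and 0.940. From wildtype to Q133H progenitors at day 2, the summed values went from 45.8 to 325 for the immune list, from 793 to 998 for the adipocyte list, and from 20.4 to 40.5 for the endothelial list. Fibroblast markers with values of at least 10 went both ways at day 2, as read from each line's separately scaled days 1 and 2. Col1a1 had 4829 in wildtype and 759 in Q133H progenitors, and Col3a1 14866 and 10581. Col1a2 had 16022 and 19067, Pdgfra 29.7 and 74.9, and Dcn 22.3 and 24.2. The summed values of the immune list ranged from 39.6 to 369 over all tables, those of the endothelial list from 17.0 to 53.3, those of the adipocyte list from 370 to 2324, and those of the fibroblast list, which includes collagens that myogenic cells also express, from 14581 to 79000. The myoblast list summed to between 32775 and 107676. The part of other cells in the subunit values was not tested.

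Complex I accepts electrons from NADH. Its core subunits are those that carry the flavin and iron-sulfur clusters. All 7 on the list were at least 1.5-fold lower in Q133H than in wildtype progenitors at day 2 (background 25%), with a median of -0.85. With equal sums, 4 of the 7 passed 1.5-fold (background 18.5%) and the median was -0.60. Ndufs3 was the lowest, with 2601 in wildtype and 1303 in Q133H progenitors. Between days 1 and 2, Ndufs3 went from 1377 to 2484 in wildtype and from 1283 to 1479 in Q133H progenitors. Ndufs4, an accessory subunit of the NADH-binding arm, showed the lowest ratio of complex I in Δ95–99 progenitors, with 2071 in wildtype and 1152 in the line. In EMD-/y and S54F progenitors the same gene stood at 1919 and 1799, beside 1865 and 1914 in wildtype in the respective tables.

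Ndufc1, an accessory subunit of the membrane arm, had the highest complex I ratio in wildtype between days 1 and 2, from 401 to 1154, and the lowest between days 0 and 1, from 714 to 430. In +EMD progenitors at day 2 it lay at 636, beside 1111 in wildtype. Ndufc2, its partner, had a value of 1445 in EMD-/y and 983 in wildtype progenitors at day 2, the highest ratio of complex I in that line. Ndufa6 was the highest in S54F progenitors, with 991 beside 713 in wildtype. Ndufv3, which sits beside the flavoprotein, had values of 1220 in wildtype and 497 in +EMD progenitors at day 1, 1252 and 555 in Q133H, and 1252 and 529 in Δ95–99.

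Ndufa4 was counted with complex I by its symbol and enters the complex I medians above, although its product is known as a subunit of complex IV. It was below wildtype in all 5 lines on each day. At day 0 the values were 1749 in wildtype and 837 in +EMD, 1748 and 766 in S54F, 1789 and 719 in Δ95–99, 1782 and 759 in Q133H, and 1771 and 1277 in EMD-/y progenitors. At day 2 the ratios ranged from -0.63 in Δ95–99 to -0.22 in EMD-/y progenitors. The lines share the wildtype group of each day.

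Complex II oxidizes succinate and is shared with the tricarboxylic acid cycle. Its flavoprotein Sdha was nearest to wildtype of the 4 subunits at day 2 in +EMD, Δ95–99, and Q133H progenitors. Sdha had values of 5199 in wildtype and 4269 in Q133H progenitors at day 2, whereas Sdhb, the iron-sulfur subunit, had 2759 and 1684. Between days 1 and 2 Sdhb went from 1714 to 2636 in wildtype and from 1912 to 1913 in Q133H progenitors. The membrane anchor Sdhc was the highest of complex II in wildtype between days 1 and 2, from 1741 to 3325, and Sdhd, the other anchor, was the lowest in +EMD at day 2, with a log2 ratio of -0.52.

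Complex III transfers electrons from ubiquinol to cytochrome c. Its 8 subunits were all above 0 in wildtype between days 1 and 2, from 0.20 for Uqcrh to 0.91 for Uqcrc2, a core subunit whose value went from 2621 to 4919. All 8 were below wildtype in +EMD, Δ95–99, and Q133H progenitors at day 2. Uqcrq, a small subunit near cytochrome b, was the lowest in Q133H (2378 in wildtype and 1286 in the line) and in Δ95–99 progenitors (2324 and 1458). In +EMD progenitors the lowest was Uqcr11 at -0.53, and the highest was Uqcrc1 at -0.32. In EMD-/y progenitors the 8 ratios lay between 0.04 for Uqcrfs1, the Rieske protein, and 0.18 for Uqcrc1, although with equal sums 3 of the 8 were below 0. In S54F they lay between -0.13 for Uqcrb and 0.16 for Uqcrh.

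Complex V makes ATP. At day 2 its 17 subunits were all below wildtype in Q133H progenitors, from -0.96 for Atp5md to -0.02 for Atp5e, and 15 of the 17 were below with equal sums. Atp5e, the ε subunit of the rotor stalk, stood out as the highest of complex V in all 5 lines. Its values at day 2 were 489 in wildtype and 922 in EMD-/y, 501 and 975 in S54F, 509 and 712 in +EMD, 542 and 697 in Δ95–99, and 554 and 548 in Q133H progenitors. At day 0 it was above wildtype by 0.71 to 0.97 in the 5 lines.

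Cox7a2l, a complex IV homologue that takes part in joining complexes III and IV into supercomplexes, was likewise above wildtype in all 5 lines on each day. The day 2 values were 893 in wildtype and 1803 in EMD-/y, 917 and 2069 in S54F, 1015 and 2018 in Q133H, 991 and 1687 in Δ95–99, and 932 and 1394 in +EMD progenitors. The day 0 ratios ranged from 0.62 in +EMD to 1.11 in Q133H, and the day 1 ratios from 0.25 in +EMD to 0.83 in EMD-/y progenitors. All these comparisons use the wildtype groups of the same 3 days.

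Complex IV has isoforms that heart and skeletal muscle use in place of the widely expressed ones, namely Cox6a2 for Cox6a1, Cox7a1 for Cox7a2, and Cox8b for Cox8a. Cox6a2 (chr7:128205435-128206366), Cox7a1 (chr7:30184171-30186030), and Cox8b (chr7:140898942-140900446) all lie on chromosome 7 in GRCm38. Of 88 members, 71 have a promoter sequence in the RefSeq table used here. The 250 bases upstream of the start site of the muscle isoforms Cox7a1 and Cox8b and of all 3 partners are shown to set side by side the regions of genes whose values parted during differentiation. Cox6a2 is not among the 71, so Cox6a1 stands without its muscle isoform. Capitals mark matches to the motifs searched on both strands, which were CAGCTG (an E-box that myogenic factors can bind), CTAAAAATA (MEF2), GCGCATGCG (NRF1), CCGGAAG (ETS factors), AAGATGGCG (YY1), and TCAAGGTCA (ERR receptors).
Cox7a1 (chr7:30183921-30184170, plus strand): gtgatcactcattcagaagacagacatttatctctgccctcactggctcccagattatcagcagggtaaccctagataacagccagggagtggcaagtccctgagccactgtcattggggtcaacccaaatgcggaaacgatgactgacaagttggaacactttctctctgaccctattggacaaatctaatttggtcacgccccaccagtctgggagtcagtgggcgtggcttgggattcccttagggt
Cox7a2 (chr9:79759854-79760103, minus strand): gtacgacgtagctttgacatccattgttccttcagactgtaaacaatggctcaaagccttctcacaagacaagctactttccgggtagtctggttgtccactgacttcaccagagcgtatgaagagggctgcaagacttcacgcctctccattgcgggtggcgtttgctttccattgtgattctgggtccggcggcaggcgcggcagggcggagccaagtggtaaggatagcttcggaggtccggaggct
Cox8b (chr7:140900447-140900696, minus strand): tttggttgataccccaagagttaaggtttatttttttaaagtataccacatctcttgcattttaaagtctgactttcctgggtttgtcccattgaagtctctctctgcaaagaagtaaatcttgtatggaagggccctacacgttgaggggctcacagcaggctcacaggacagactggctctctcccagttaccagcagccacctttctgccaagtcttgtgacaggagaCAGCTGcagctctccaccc
Cox8a (chr19:7217617-7217866, minus strand): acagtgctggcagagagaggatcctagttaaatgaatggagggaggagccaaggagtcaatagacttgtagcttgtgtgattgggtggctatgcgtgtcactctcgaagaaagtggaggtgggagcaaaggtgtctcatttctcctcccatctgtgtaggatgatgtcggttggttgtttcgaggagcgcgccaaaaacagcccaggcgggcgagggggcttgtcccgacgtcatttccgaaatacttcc
Cox6a1 (chr5:115348959-115349208, minus strand): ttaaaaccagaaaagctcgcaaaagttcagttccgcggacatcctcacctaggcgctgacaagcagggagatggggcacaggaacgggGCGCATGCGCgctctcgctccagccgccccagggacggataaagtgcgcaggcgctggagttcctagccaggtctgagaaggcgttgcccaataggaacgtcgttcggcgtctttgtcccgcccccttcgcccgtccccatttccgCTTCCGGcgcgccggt
The Cox8b sequence holds the E-box 19 bases upstream of its start, the Cox6a1 sequence holds the NRF1 and ETS motifs, and the Cox7a1, Cox7a2, and Cox8a sequences hold none of the 6. The GC content was 51.2% for Cox7a1, 54.8% for Cox7a2, 47.2% for Cox8b, 52.8% for Cox8a, and 62.8% for Cox6a1.

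Over all members, the NRF1 motif was present in 6 of 71 upstream regions (8.45%) and in 1.64% of the 27025 genes with a sequence. In 4 of the 6 (5.63% of 71), and in 0.877% of all genes, it overlapped with its other strand as a palindrome of 10 bases. The palindrome was searched first, and the 9-base form was taken after that count was seen. The ETS motif was present in 12 of 71 (16.9%) and in 7.83% of all genes, and the E-box in 6 of 71 (8.45%) and in 14.7%. The YY1 and ERR motifs were each present in 1 member, or 1.41%, against 0.710% and 0.422% of all genes, and the MEF2 motif was present in 0 members, against 0.537% of all genes. All genes with a sequence were counted here, whether measured or not. Median GC content upstream was 56.4% for members and 52.0% for all genes, and its part in these shares was not tested. The NRF1 motif, shown here because NRF1 is a known regulator of respiratory genes, has these surroundings in the other 5 members, with the bases matched on either strand in capitals. Atp5l and Ndufa8 hold the match on the other strand alone.
Atp5g2 (chr15:102671068-102671101, minus strand): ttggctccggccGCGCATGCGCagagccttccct
Atp5k (chr5:108434428-108434461, minus strand): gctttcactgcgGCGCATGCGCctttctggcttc
Atp5l (chr9:44920963-44920992, minus strand): aaccaataaCGCATGCGCatttcccccact
Ndufa11 (chr17:56717690-56717723, plus strand): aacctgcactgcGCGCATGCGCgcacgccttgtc
Ndufa8 (chr2:36049339-36049359, minus strand): cgtcgctggagaCGCATGCGC
A match is a description of letters in the reference, and these data hold no measurement of binding.

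Cox6a2 had the clearest course of the 3 muscle isoforms. In wildtype progenitors, its value went from 49.0 at day 0 to 201 at day 1, and from 194 to 2460 between days 1 and 2 in the second table. EMD-/y progenitors went from 244 to 1806 and S54F progenitors from 100 to 1248 over the latter step. +EMD progenitors went from 16.6 to 304, Δ95–99 progenitors from 9.64 to 226, and Q133H progenitors from 16.2 to 63.3. The ratio between days 1 and 2 was hence high in every line, but the lines began from different values. Against wildtype at day 2, the log2 ratio was -0.36 in EMD-/y, -1.04 in S54F, -3.09 in +EMD, -3.64 in Δ95–99, and -4.87 in Q133H progenitors, the last from 2552 in wildtype and 87.0 in the line.

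Cox8b went from 5.10 to 67.4 in wildtype between days 0 and 1, and from 64.9 to 525 between days 1 and 2. At day 2 it was close to wildtype in S54F (498 and 505) and EMD-/y progenitors (485 and 590), and lower in +EMD (506 and 201), Δ95–99 (537 and 243), and Q133H progenitors (543 and 140). The Q133H value at day 1 was 3.68 in the table with day 0 and 29.2 in the table with day 2, so its ratio of 2.11 between days 1 and 2 is uncertain. Cox7a1 was the weakest, with 9.18 and 39.3 at days 0 and 1 and 37.7 and 56.1 at days 1 and 2 in wildtype. At day 2 it was lowest in +EMD progenitors, with 11.9 beside 53.6 in wildtype, and had values of 27.3 in S54F, 26.9 in Δ95–99, and 27.9 in Q133H progenitors.

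**Figure D3:**
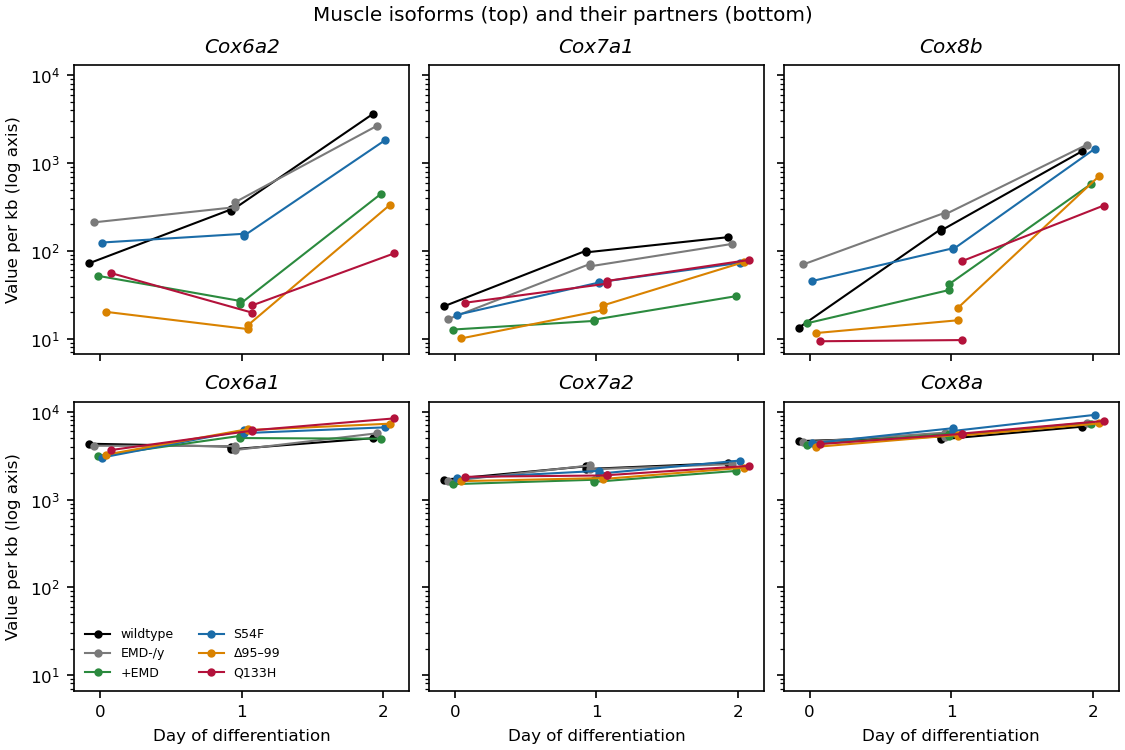
Value per kb of the muscle isoforms Cox6a2, Cox7a1, and Cox8b (top) and of their partners Cox6a1, Cox7a2, and Cox8a (bottom) at days 0, 1, and 2, on a log axis, with 1 colour per line of cells and each step drawn from its own table. The muscle isoforms spread by line at day 2, where Cox6a2 is highest in wildtype and lowest in Q133H progenitors, while the partners spread less.

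The partners lay on both sides of wildtype at day 2. In Q133H progenitors the log2 ratio was 0.50 for Cox6a1, -0.36 for Cox7a2, and -0.03 for Cox8a, and in Δ95–99 progenitors it was 0.33, -0.40, and -0.10 in the same order. The medians over the 3 genes were 0.19 in EMD-/y, 0.34 in S54F, -0.11 in +EMD, -0.10 in Δ95–99, and -0.03 in Q133H progenitors. None of the 3 partners was 1.5-fold from wildtype in any line, and the higher Cox6a1 enters the shares of Cox6a2 below. A ratio of 2 genes within a group does not depend on scaling. Per kb, Cox6a2 made up 42.0% of the Cox6a1 and Cox6a2 total in wildtype at day 2 and 7.10% at day 1. The day 2 share was 32.4% in EMD-/y, 21.7% in S54F, 8.45% in +EMD, 4.44% in Δ95–99, and 1.70% in Q133H progenitors. Cox8b made up 16.8% of its pair in wildtype at day 2, 17.7% in EMD-/y, 13.7% in S54F, 7.37% in +EMD, 8.91% in Δ95–99, and 5.01% in Q133H progenitors, with lines read from their tables against wildtype and wildtype from its own days 1 and 2. Cox7a1 made up 5.19% in wildtype, and between 1.55% in +EMD and 4.58% in EMD-/y progenitors.

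Other isoforms of restricted expression were weak. Cox6b2, known from testis, had values at day 1 of 107 in wildtype and 5.26 in +EMD, 110 and 6.60 in Δ95–99, 110 and 2.04 in Q133H, 107 and 59.4 in S54F, and 102 and 51.5 in EMD-/y progenitors. Ndufa4l2, which is known as a target of the hypoxia factor HIF-1, went from 0.790 to 12.6 between days 0 and 1 in wildtype and from 11.5 to 3.40 between days 1 and 2. In Q133H progenitors the latter step went from 10.2 to 28.8, and at day 2 its value was 3.03 in wildtype and 26.2 in Q133H, 3.36 and 20.3 in Δ95–99, and 3.34 and 10.8 in +EMD progenitors. Cox4i2, known from lung, reached 14.7 in wildtype at day 0 and stayed at or below 3.46 in the other lines on that day. Cox7b2 is listed in 5 tables, at no more than 0.686.

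Some subunits differed from wildtype in opposite directions at days 0 and 1. Of 79 subunits measured in all 4 transduced lines on both days, 5 were above wildtype in all 4 at day 0 and below it in all 4 at day 1 (6.33%, background 4.02%), and 13 were below and then above (16.5%, background 4.77%). With equal sums the numbers were 5 (6.33%, background 3.16%) and 17 (21.5%, background 5.65%). The 5 were Atp5g2, Cox5b, Ndufa13, Ndufb8, and Uqcr11. The 13 were Atp5h, Atp5k, Atp5md, Atp5mpl, Cox5a, Cox6a1, Cox7c, Ndufa1, Ndufa8, Ndufab1, Ndufb10, Ndufs5, and Sdhc. The pattern was noticed in the data, and the 4 lines share the wildtype groups.

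Atp5g2, 1 of the genes for the membrane ring subunit c, showed it most plainly. In the tables of days 0 and 1, it had values of 2475 in wildtype and 2577 in EMD-/y progenitors at day 1, and between 1853 and 2995 in the 4 transduced lines at day 0. In wildtype and EMD-/y progenitors at day 0 it had 807 and 656, in the transduced lines at day 1 between 492 and 845, and at day 2 between 577 and 858 in all 6 lines. The groups thus fall into a set of 6 with high values and a set of 12 with low values, and these sets cut across genotype and day. Atp5md, a small subunit of the synthase dimer, ran the other way, with 474 in wildtype and 6.53 to 82.8 in the transduced lines at day 0 in the tables with day 1, although its values were unsteady between tables. With no minimum value, 82 of all genes were at least 2-fold apart between the same sets in all 8 transitions that join them. Of the 82, 77 were unnamed predicted genes and 5 were named (Atp5g2, Rps13, Rps29, Gm4737, and Havcr1). In all, 19653 genes are listed, of which 1798 are predicted genes. The sets were read from Atp5g2, so its own place among the 5 follows from that choice. What the sets of libraries have in common is not stated in the labels, and its part in the ratios was not tested. The comparisons at day 2, those of EMD-/y with wildtype, and the day 1 to day 2 transitions of the transduced lines lie within a set, whereas both transitions of wildtype and EMD-/y progenitors, the day 0 to day 1 transitions of the transduced lines, and their comparisons with wildtype at days 0 and 1 join the sets.

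**Figure D4:**
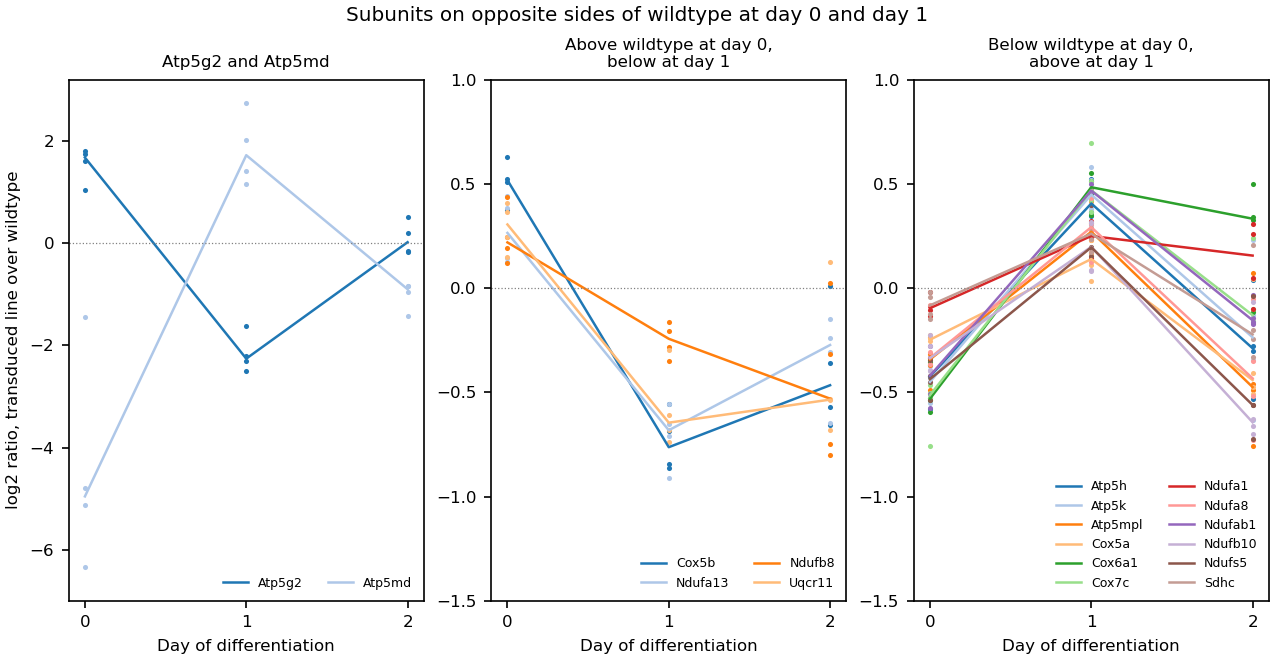
Log2 ratio of the transduced lines over wildtype at days 0, 1, and 2 for the 18 subunits that lay on opposite sides of wildtype at days 0 and 1, with 1 point per line of cells and a line through the median of the 4. Atp5g2 and Atp5md (left) range from -6.33 to 2.74, and the other 16 (middle and right) from -0.91 to 0.70.

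The 18 subunits had a median gene length of 579 bases in the tables, and the other 65 measured subunits had 754. Of the 18, 6 had a near-identical stretch in a transcript of another GENCODE gene (Atp5h, Cox5b, Cox7c, Ndufa13, Ndufab1, and Ndufs5), compared with 7 of 64 of the others. Such a match, called a copy here, is at least 200 aligned bases at 97% identity or more. Positions were not compared, so a match may be an overlapping gene at the same locus as well as a copy elsewhere. Whether reads were divided between the matched genes was not tested. Without the 18 subunits, the median between days 1 and 2 in wildtype moved by less than 0.1, and 6 instead of 10 were at least 2-fold higher.

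**Figure D5:**
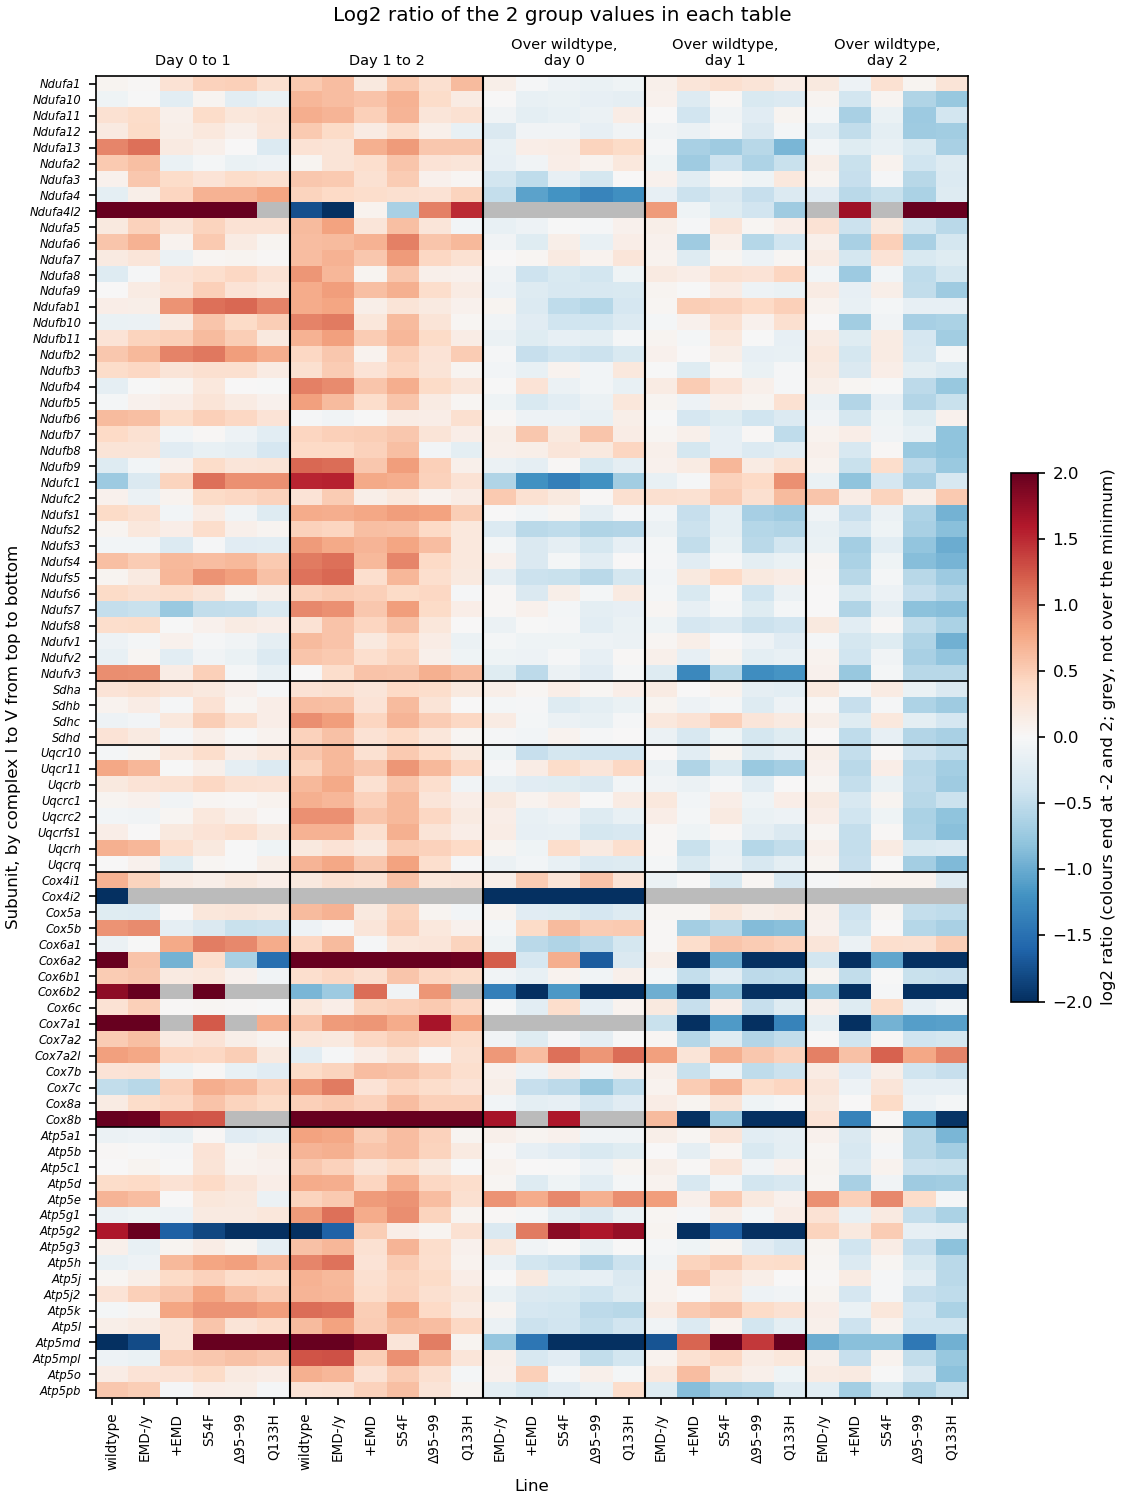
Log2 ratio of the 2 group values in each of the 27 tables (columns) for each measured subunit (rows, ordered by complex), with red for higher in the later day or the line, blue for lower, and grey where neither value reached 10. The block of day 1 to day 2 is red in nearly all rows, and the block at day 2 over wildtype is blue in most rows for +EMD, Δ95–99, and Q133H progenitors.

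Other genes of mitochondrial metabolism were read from lists. Of 44 measured assembly factors, 19 were at least 1.5-fold higher (background 18%) and 1 was lower (background 22.2%) between days 1 and 2 in wildtype progenitors, with a median of 0.53, whereas in Q133H progenitors 1 was higher (background 13.8%) and 1 lower, with a median of 0.16. For 13 genes of the tricarboxylic acid cycle the medians were 0.44 in wildtype, with 5 higher and 0 lower, and -0.04 in Q133H progenitors, with 0 higher and 0 lower. For 12 genes of cytochrome c and ubiquinone synthesis they were 0.42 and 0.03. For the regulators of mitochondrial biogenesis they were 0.28 over 15 genes and -0.08 over 12. Atpif1, which inhibits the reverse action of ATP synthase, went against the subunits, at -0.33 in wildtype and -0.40 in Q133H progenitors. Against wildtype at day 2, 15 of 44 assembly factors and 7 of 13 cycle genes were at least 1.5-fold lower in Q133H progenitors (background 25%), with medians of -0.30 and -0.63. With equal sums these were 7 and 4 (background 18.5%), with medians of -0.045 and -0.38, so the lead of the assembly factors over all genes in this count rests on the deposited scaling.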

How the data were processed

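RNA from 6 lines of H2K progenitors at days 0, 1, and 2 was sequenced, and the authors deposited 27 tables, 12 between consecutive days of a line and 15 between a line and wildtype on the same day. According to the labels and methods, the authors' sequencing provider used SOAPnuke for filtering, reads were aligned to mm10 by HISAT2, and the authors compared pairs of groups with DESeq2. Versions and the counting tool are not given in the sources used here. The signal values as deposited by the authors are 1 normalized count per gene and group, scaled within a table. Columns of values per sample number 0. The log2 fold changes, p-values, and q-values of the authors' comparisons were not used. The deposited gene length is the other column used. Depth per sample is unknown.

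Symbols were taken from RefSeq (GRCm38.p6, the same assembly as mm10) by gene number, and 17824 of 17855 numbers matched. The log2 ratio of the 2 group values was computed for genes with a higher value of at least 10, with no pseudocount. Members were counted past 1.5-fold and 2-fold beside the share of all measured genes. No test was made, since groups have a single value, and counts carry no error. Named genes are the isoform pairs, the isoforms of restricted expression, the highest and lowest member of each complex in each wildtype transition and in each line against wildtype at day 2, and members past 2-fold in at least 3 comparisons, 32 in all. Gene lists and members were chosen with earlier results of these data known. Copies were sought by aligning the longest GENCODE vM21 transcript of 85 members to all others with minimap2 2.31-r1302. Alternatives were centring on all genes, equal sums, a pseudocount of 1, no minimum, a minimum of 100, and leaving out the restricted isoforms. The scripts were tested on simulated data. Python 3.11.15, numpy 2.4.6, pandas 2.3.3, and matplotlib 3.10.9 were used.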

Additional observations from a re-analysis of the deposited data

How the results depend on the processing

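No paired analysis was possible because the tables give 1 value per group, and no replicate could be left out. Of 444 alternative values of 104 results, 0 reversed a median of at least 0.1 log2 and 395 kept within 0.1 log2 or within 1.5 times of the count given. Of 3 medians nearer to 0, 6 alternative values had the other sign, among them that of S54F at day 2, at 0.02 as given and -0.02 with equal sums. Centring on all genes, dropping the minimum, and taking differences from the tables against wildtype left every value within these bounds. Centring had little room to move a value, since the medians over all genes within a table already lay between -0.02 and 0.02. It supplied 71 of the 395. Dropping the minimum adds only the few listed subunits below it, and the differences from the tables against wildtype rest on the same groups. These 2 alternatives also had little room to move a value, and supplied 55 and 10 of the 395.

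With equal sums, the day 1 to day 2 medians were 0.43 in wildtype, 0.42 in EMD-/y, 0.19 in +EMD, 0.32 in S54F, and 0.21 in Δ95–99 progenitors, and subunits at least 1.5-fold higher numbered 21, 19, 6, 9, and 7, of which 5, 5, and 3 in wildtype, EMD-/y, and Δ95–99 progenitors were at least 2-fold higher. The 21 are 25.6% of the subunits, against 12.2% of all genes, and the 19 in EMD-/y are 23.2% against 11.0%. The 9 in S54F are 11.0% against 11.7%, the 6 in +EMD 7.32% against 13.7%, and the 7 in Δ95–99 8.54% against 12.7%. The share of all genes was not computed for the 2-fold counts with equal sums. Against wildtype, the medians were -0.061 in Δ95–99 and -0.043 in Q133H at day 1 and -0.31 and -0.32 at day 2, where 8 and 13 were at least 1.5-fold lower, 3 in Δ95–99 and 1 in EMD-/y at least 2-fold. These 8 and 13 are 9.76% and 15.9% of the subunits, against 12.8% and 18.5% of all genes.

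With a minimum of 100, the 2-fold higher count between days 1 and 2 was 3 in Δ95–99 and 1 in Q133H, the 1.5-fold count in Q133H was 4, and the 2-fold lower counts at day 2 were 2 in +EMD, 3 in Δ95–99, and 2 in Q133H, with 1 at 1.5-fold in EMD-/y. Without the restricted isoforms, the 2-fold higher counts were 1 in +EMD, S54F, and Δ95–99 and 0 in Q133H, the 1.5-fold counts were 8 in Δ95–99 and 3 in Q133H, and at day 2 the 2-fold lower counts were 0 in +EMD, S54F, and Q133H and 1 in Δ95–99, with 1 at 1.5-fold in EMD-/y and S54F. Without the 18 subunits on opposite sides of wildtype, an alternative chosen after seeing the data, the 2-fold higher count between days 1 and 2 was 6 in wildtype and in EMD-/y, the 1.5-fold count between days 0 and 1 was 4 in +EMD, 10 in S54F, 6 in Δ95–99, and 4 in Q133H, and 1 was 1.5-fold lower in EMD-/y at day 2. A pseudocount of 1 turned the Δ95–99 change of Cox6a2 over Cox6a1 from 4.31 to 4.17 and of Cox8b over Cox8a from 4.54 to 4.38. Apart from equal sums, which move all genes of a table, these counts differ because fewer subunits enter. The share of all genes was not computed for a minimum of 100, so those counts have no background. Where subunits were left out, the shares of all genes are those given with the counts above.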
